A study of Mus musculus with 4 samples.

Results

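The 9 core genes of the Sonic hedgehog pathway (Shh, Ptch1, Smo, Gli1, Gli2, Gli3, Sufu, Hhip and Gpr161) were described by their CpG methylation in embryonic mouse brain. They were chosen by name as the core of the pathway, 9 of the 20807 autosomal protein-coding genes of the GENCODE vM21 annotation. The rule uses no measured value, but it was set with earlier results of these data known. For each gene, 3 regions were measured: the start site ±1 kb, the flanks from 1 to 3 kb on either side of it, and the gene body beyond that. All 27 regions held at least 3 CpGs with 5 reads or more in each of the 4 libraries.

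Sonic hedgehog is a secreted ligand that patterns the ventral neural tube and brain. It binds Patched1, a receptor that otherwise holds the membrane protein Smoothened inactive at the primary cilium. Smoothened activity turns the GLI transcription factors from repressors into activators, and Sufu, Gpr161 and Hhip restrain the pathway at different steps.

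Whole-genome bisulfite sequencing (WGBS) was carried out on the brains of 4 male E11.5 embryos of the 129S6.cg Tet1<tm1Koh> strain. Their dams were Tet1 heterozygous and had eaten custom diet for at least 4 weeks. Per the study, the custom diets of both FA levels also contained an antibiotic, succinyl sulfathiazole. The groups were Tet1 KO on excess FA (30 ppm folic acid), WT on excess FA, KO on control FA (3 ppm) and WT on control FA, with 1 library from 1 embryo each. Tet1 encodes an enzyme that oxidises 5-methylcytosine, and the KO allele carries a cassette at the first coding ATG, on a segment that came from B6 mice by backcrossing. In the study's list of embryos, the entries with these numbers give a neural tube defect for both KO embryos, no defect for both WT embryos and 4 different litters. Genotype, phenotype and litter therefore cannot be told apart. With no replicates, no value has an SD. Every p-value from reads therefore contrasts single embryos and says nothing of the spread between embryos of a group.

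Mean coverage ran from 13.2 to 21.2 reads per CpG. Over the 14907672 CpGs used, the mean level lay between 81.4% (WT at 30 ppm) and 83.5% (KO at 30 ppm). Mitochondrial CpGs, taken as the background of incomplete conversion, read 0.914% to 0.938% methylated. A methylation level is an average over all cells of a brain, so a change in cell makeup and a change within cells cannot be told apart. The files hold no expression, so neither the loss of Tet1 nor the tissue label was checked by marker genes. Intervals in brackets are 95% Wilson intervals, cover counting error only, and treat a read as independent at each CpG it covers.

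Some of the differences sat in short stretches, and 5 of these are printed here so that the measured CpGs can be seen. All are 5′ to 3′ on the plus strand of GRCm38, with measured CpGs in capitals. They were chosen for their differences, so their levels are a description. The Hhip and Sufu stretches lie just inside the genes. That of Hhip lies in a tile described further on, and that of Sufu overlaps one. The Hhip, Gli3, Gpr161 and Shh stretches overlap differentially methylated regions (DMRs) that the authors deposited. Of these 5 genes, Hhip and Shh are transcribed from the minus strand and the others from the plus strand.
Hhip, intron, chr8:80056628-80056926: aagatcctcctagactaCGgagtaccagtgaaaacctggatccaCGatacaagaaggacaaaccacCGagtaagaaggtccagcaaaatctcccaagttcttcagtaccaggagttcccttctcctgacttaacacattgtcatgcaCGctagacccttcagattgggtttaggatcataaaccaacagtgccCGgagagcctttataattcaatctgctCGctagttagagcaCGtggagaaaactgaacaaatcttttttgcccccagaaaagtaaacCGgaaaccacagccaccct
Sufu, intron, chr19:46397958-46398257: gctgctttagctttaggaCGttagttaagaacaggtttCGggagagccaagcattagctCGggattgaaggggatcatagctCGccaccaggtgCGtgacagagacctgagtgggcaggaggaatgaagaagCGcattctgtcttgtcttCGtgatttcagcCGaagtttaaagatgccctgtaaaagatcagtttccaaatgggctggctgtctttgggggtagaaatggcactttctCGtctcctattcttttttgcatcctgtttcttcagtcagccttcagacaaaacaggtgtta
Gli3, upstream of the gene in an exon of the noncoding transcript Gm6556, chr13:15461835-15462134: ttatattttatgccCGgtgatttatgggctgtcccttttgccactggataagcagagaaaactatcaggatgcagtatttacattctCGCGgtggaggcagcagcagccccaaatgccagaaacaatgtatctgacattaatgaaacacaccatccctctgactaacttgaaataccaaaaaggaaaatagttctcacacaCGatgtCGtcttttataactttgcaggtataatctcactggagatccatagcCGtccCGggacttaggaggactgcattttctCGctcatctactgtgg
Gpr161, intron, chr1:165316574-165316873: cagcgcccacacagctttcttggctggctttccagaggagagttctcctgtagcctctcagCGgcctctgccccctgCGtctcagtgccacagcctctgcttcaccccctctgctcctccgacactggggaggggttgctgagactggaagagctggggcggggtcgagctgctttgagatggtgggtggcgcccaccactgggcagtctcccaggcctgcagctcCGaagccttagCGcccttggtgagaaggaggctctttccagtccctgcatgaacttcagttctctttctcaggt
Shh, overlapping coding sequence, chr5:28461282-28461581: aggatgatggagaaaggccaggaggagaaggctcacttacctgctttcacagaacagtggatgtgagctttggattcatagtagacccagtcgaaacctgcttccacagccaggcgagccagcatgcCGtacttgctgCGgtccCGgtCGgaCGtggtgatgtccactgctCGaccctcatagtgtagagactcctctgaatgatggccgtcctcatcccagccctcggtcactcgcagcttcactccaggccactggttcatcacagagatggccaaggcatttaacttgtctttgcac

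In the Hhip stretch, every one of the 8 CpGs was higher in KO than in WT in both diets. The first CpG read 78.6% (KO) and 45.5% (WT) at 30 ppm, and 78.3% and 33.3% at 3 ppm. Together the 8 CpGs stood at 44.7% and 9.6% at 30 ppm and at 34.8% and 8.3% at 3 ppm. In the Sufu stretch, the 9 CpGs stood together at 53.4% (KO) and 21.7% (WT) at 30 ppm, and at 53.8% and 28.1% at 3 ppm. The last of them, at 84.2%, 47.6%, 76.0% and 59.3% in the same order, was the most methylated in every library. These stretches thus ran from low to intermediate methylation in WT and were higher in both KO brains.

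Across the 27 regions, KO exceeded WT in 25 at 30 ppm and in 21 at 3 ppm, and in 20 in both diets, where 79.9%, 68.9% and 58.5% of the regions of all genes did. A region was called when Fisher's exact test on its summed reads gave an adjusted p under 0.05 over all genes and the levels differed by at least 5 percentage points (points). By this rule, 9 regions were called at 30 ppm and 7 at 3 ppm, all higher in KO. Over all genes, 20.4% of starts, 19.8% of flanks and 8.03% of bodies were called higher at 30 ppm. At 3 ppm these shares were 24.4%, 16.8% and 5.75%. In both diets 5 member regions were called, beside 8.02% of the regions of all genes. These 5 were the Ptch1 start, the Smo, Hhip and Gli3 flanks, and the Shh body. Reads that cover neighbouring CpGs are not independent. With each z value divided by its robust SD over all genes, 3 of the 16 calls were left, all at 30 ppm: the Smo and Hhip flanks and the Gli3 body. By that scaling 2.19% of the regions of all genes were called at 30 ppm and 1.81% at 3 ppm.

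The members' start windows were called higher in KO in 3 of 9 at 30 ppm (Gli1, Hhip and Ptch1), where 20.4% of 19924 genes were. At 3 ppm the count was 2 of 9 (Ptch1 and Smo), beside 24.4% of all genes. The median KO minus WT difference of the 9 start windows was 8.34 points at 30 ppm and 2.92 at 3 ppm, against 3.93 and 3.31 over all genes. With windows at the principal transcript starts, the members' medians were 1.52 and 1.08 points, against 3.98 and 3.40 over all genes, so the members lay below all genes in both diets. Gli1 and Hhip were then called at 30 ppm and Smo at 3 ppm, beside 21.1% and 25.5% of all genes. Flanks were called in 4 of 9 at 30 ppm (Gli3, Hhip, Smo and Sufu), beside 19.8%, and in 3 of 9 at 3 ppm (Gli3, Hhip and Smo), beside 16.8%. Bodies were called in 2 of 9 at 30 ppm (Gli3 and Shh), beside 8.03%, and in 2 of 9 at 3 ppm (Gli1 and Shh), beside 5.75%. The Gli3 body call rested on 5.02 points against the minimum of 5, and it was lost in 4 alternatives at 4.44 to 4.99 points (10 reads per CpG, thinned libraries, the whole gene span, and windows at the principal transcript start). Higher methylation in KO was thus frequent over all genes.

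**Figure D1:**
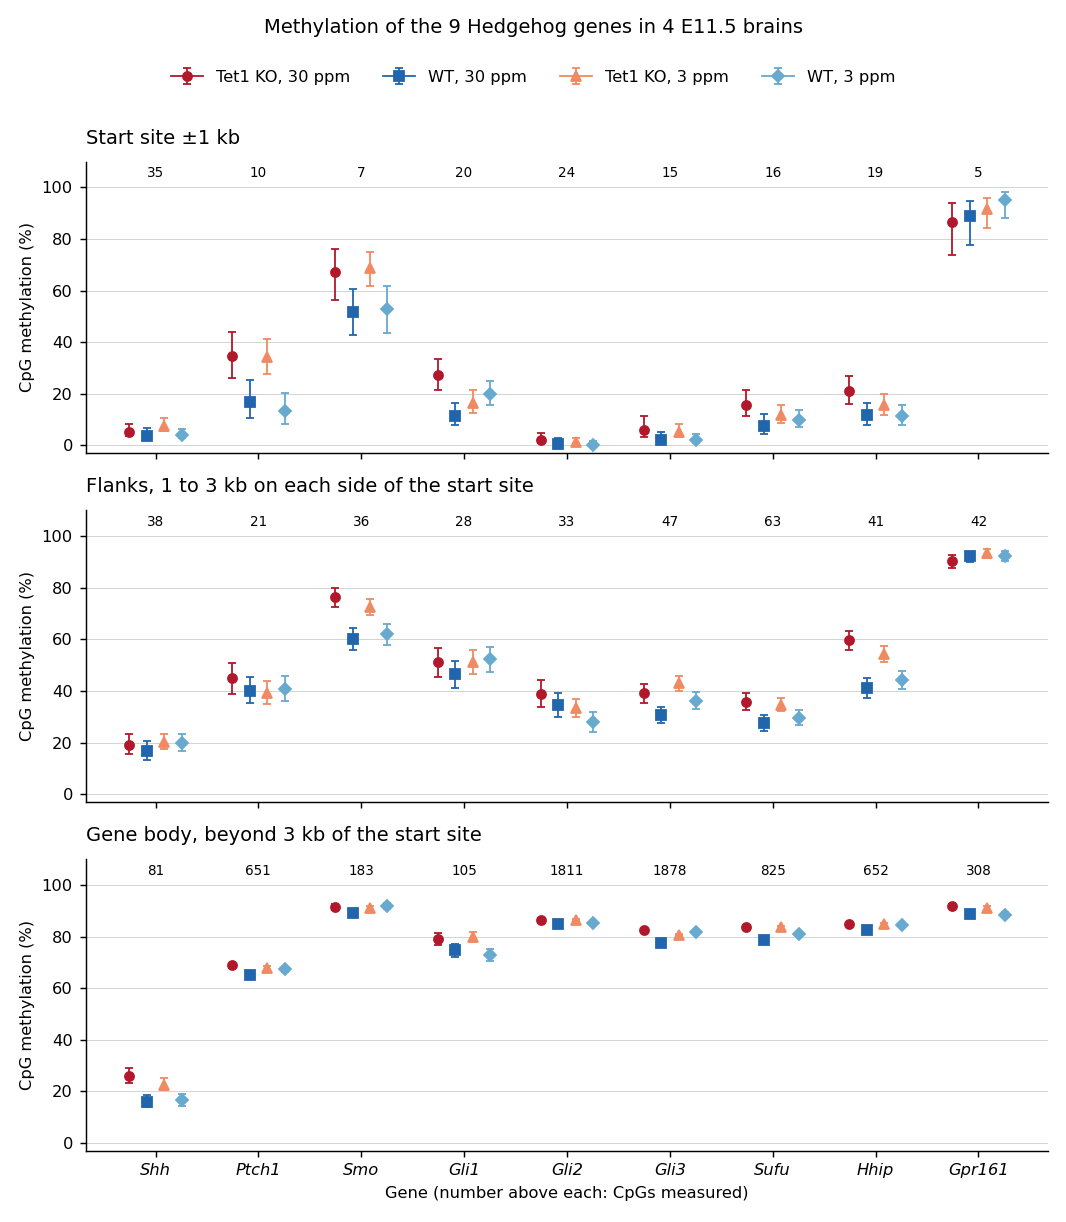
CpG methylation (%) of the 9 genes in the start window, flanks and gene body, 1 point per library with its 95% Wilson interval and the number of CpGs above. Both KO points lie above both WT points in 18 of the 27 regions, beside 51.7% of the regions of all genes, while at the Gli1 start the KO library at 30 ppm stands alone at 27.1%.

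Shh (ENSMUSG00000002633.4), the ligand, spans chr5:28456815-28467256 of GRCm38 and was low at its start in every library. Its 35 CpGs there read 5.28% (KO) and 3.76% (WT) at 30 ppm, and 7.64% and 4.02% at 3 ppm. Neither the Shh start nor its flanks passed the test. The 81 CpGs of its body read 26.1% [23.3, 29.0] (KO) and 16.1% [13.8, 18.7] (WT) at 30 ppm (adjusted p = 2.37e-06, Fisher's exact test). At 3 ppm they read 22.7% [20.5, 25.1] and 16.6% [14.46, 18.99] (adjusted p = 0.00193), so both KO libraries lay above both WT libraries. The 3 ppm call was lost under 5 of the alternatives, among them thinning the libraries to equal depth (4.77 points). Shh was the most weakly methylated body of the 9, the others reading 65.3% or more in every library.

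Ptch1 encodes the receptor of Shh, and Hhip a membrane protein that binds and sequesters Hedgehog ligands. Ptch1 (ENSMUSG00000021466.12) spans chr13:63508328-63573598 and Hhip (ENSMUSG00000064325.4) chr8:79965851-80058006, both on the minus strand. The Ptch1 start window read 34.6% [26.2, 44.0] (KO) and 16.7% [10.5, 25.4] (WT) at 30 ppm (adjusted p = 0.0236), and 34.0% [27.7, 41.0] and 13.2% [8.4, 20.1] at 3 ppm (adjusted p = 0.000287, both Fisher's exact test). These values rested on 10 of the 113 CpGs of the window, 8 of them in the bin centred 0.75 kb upstream. The annotated gene start is that of a longer transcript, and the start of the APPRIS principal transcript lies 7.9 kb inside the gene. There, 21 CpGs read 0.51% (KO) and 1.06% (WT) at 30 ppm, and 1.28% and 0.78% at 3 ppm. With no coverage minimum the difference at the annotated start was 6.19 points at 30 ppm and the call was lost. The deposited data list no CpG with fewer than 2 reads, so this setting still required 2 reads in each library. The Ptch1 flanks stood between 39.4% and 44.9% and were not called, and its body between 65.3% and 68.9%.

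Hhip was higher in KO on the intragenic side of its start, and at 30 ppm also in a tile 1.5 kb upstream (90.1% and 73.9%, adjusted p = 0.0426, Fisher's exact test), which read 89.4% and 83.9% at 3 ppm. The flank of 1 to 3 kb downstream read 38.6% [33.7, 43.7] (KO) and 18.8% [15.2, 22.9] (WT) at 30 ppm (adjusted p = 1.04e-07). At 3 ppm it read 36.9% [33.3, 40.7] and 20.9% [17.6, 24.8] (adjusted p = 3.81e-07, both Fisher's exact test). The 500 bp bin centred 0.25 kb into the gene was at 0% in 3 libraries and at 2.6% in KO at 3 ppm, and the bin centred 1.25 kb inside read 40.8%, 7.8%, 32.8% and 7.3% in the order KO and WT at 30 ppm, then KO and WT at 3 ppm. The start window as a whole passed at 30 ppm (20.9% and 11.6%, adjusted p = 0.0446) and not at 3 ppm (15.5% and 11.2%, adjusted p = 0.297). With a window of ±500 bp the difference at 30 ppm was 0 points. With both sides summed, the Hhip flanks read 59.6%, 41.2%, 54.2% and 44.1% in the same order, and its body lay between 82.6% and 84.8%.

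Smo (ENSMUSG00000001761.7, chr6:29735503-29761365, plus strand), the transducer held inactive by Patched1, had the second highest start levels among the 9. Its 7 measured CpGs, of 124 in the window, read 67.1% and 51.7% at 30 ppm (adjusted p = 0.134) and 68.6% and 52.7% at 3 ppm (adjusted p = 0.0361, Fisher's exact test). The 3 ppm call was lost with no coverage minimum (8.93 points) and with thinned libraries. The downstream flank read 72.7% [68.1, 76.8] (KO) and 53.1% [48.2, 57.8] (WT) at 30 ppm, and 68.2% [64.7, 71.5] and 54.5% [49.6, 59.2] at 3 ppm. Within that flank, the bin centred 1.25 kb inside the gene was weakly methylated, at 6.0%, 3.61%, 11.8% and 3.45% in the order KO and WT at 30 ppm, then KO and WT at 3 ppm. Deeper in the gene, the Smo body stood at 89.2% or more in every library.

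Sufu and Gpr161 restrain GLI activity, Sufu by binding GLI proteins and Gpr161 as a ciliary receptor. Both lie on the plus strand, Sufu (ENSMUSG00000025231.17) at chr19:46396896-46488804 and Gpr161 (ENSMUSG00000040836.15) at chr1:165295789-165326745. In Sufu the downstream flank read 71.1% [64.8, 76.7] (KO) and 44.0% [38.6, 49.7] (WT) at 30 ppm (adjusted p = 8.41e-08). At 3 ppm it read 70.0% [65.3, 74.2] and 51.1% [45.7, 56.4] (adjusted p = 7.98e-06, both Fisher's exact test). The upstream flank of Sufu as a whole was not called, at 21.04%, 17.1%, 18.5% and 17.9% in the same order. Within it, the tile 2.4 kb upstream lies in an intron of the neighbour Actr1a. That tile read 47.0% and 31.4% at 30 ppm (adjusted p = 0.0465, Fisher's exact test) and 45.3% and 36.9% at 3 ppm, where it was not called. The Sufu start read 15.8% and 7.45% at 30 ppm (adjusted p = 0.0553) and 11.7% and 9.97% at 3 ppm, and its body differed by 4.83 and 2.88 points, under the minimum of 5. Gpr161 was methylated at its annotated start, from 86.7% in KO at 30 ppm to 95.1% in WT at 3 ppm over 5 CpGs, and none of its 3 regions was called. At its principal transcript start, 6.8 kb inside the gene, it also stood between 87.7% and 89.2%.

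The GLI genes encode the transcription factors of the pathway, Gli1 mostly an activator and itself a target, Gli3 the main repressor. Gli1 (ENSMUSG00000025407.7) spans chr10:127329882-127341974 and Gli2 (ENSMUSG00000048402.14) chr1:118834132-119053619, both on the minus strand, and Gli3 (ENSMUSG00000021318.15) spans chr13:15463235-15730026 on the plus strand. The Gli1 start read 27.1% [21.5, 33.5] (KO) and 11.504% [7.97, 16.3] (WT) at 30 ppm (adjusted p = 0.000651), but 16.5% [12.5, 21.6] and 19.8% [15.4, 25.0] at 3 ppm (adjusted p = 0.569, Fisher's exact test). All 20 CpGs lay upstream of the start, in an intron of the antisense gene Gm47200. The difference at 30 ppm was 3.43 points at a minimum of 10 reads per CpG and 0 in a window of ±500 bp, and the call was lost in both. The Gli1 body, in contrast, was called at 3 ppm (80.0% and 73.0%, adjusted p = 4.21e-05, Fisher's exact test) and differed by 4.595 points at 30 ppm, but at a minimum of 10 reads the 3 ppm difference was 1.82 points. Gli2 was nearly unmethylated at its start, at 1.95%, 0.52%, 1.08% and 0% in the order KO and WT at 30 ppm, then KO and WT at 3 ppm. Its flanks read 38.9%, 34.5%, 33.4% and 27.8% and were not called. The Gli3 start was also low, at 5.88%, 2.00%, 5.04% and 2.11%. At its principal transcript start, 0.7 kb inside the gene, 13 CpGs read 0% and 0.65% at 30 ppm and 1.59% and 2.0% at 3 ppm, so that KO was not above WT there. The upstream flank of Gli3 read 65.5%, 45.9%, 70.9% and 58.3%. The KO minus WT difference in that flank was 19.6 points at 30 ppm and 12.6 at 3 ppm (adjusted p = 5.3e-06 and 0.00157, Fisher's exact test).

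**Figure D2:**
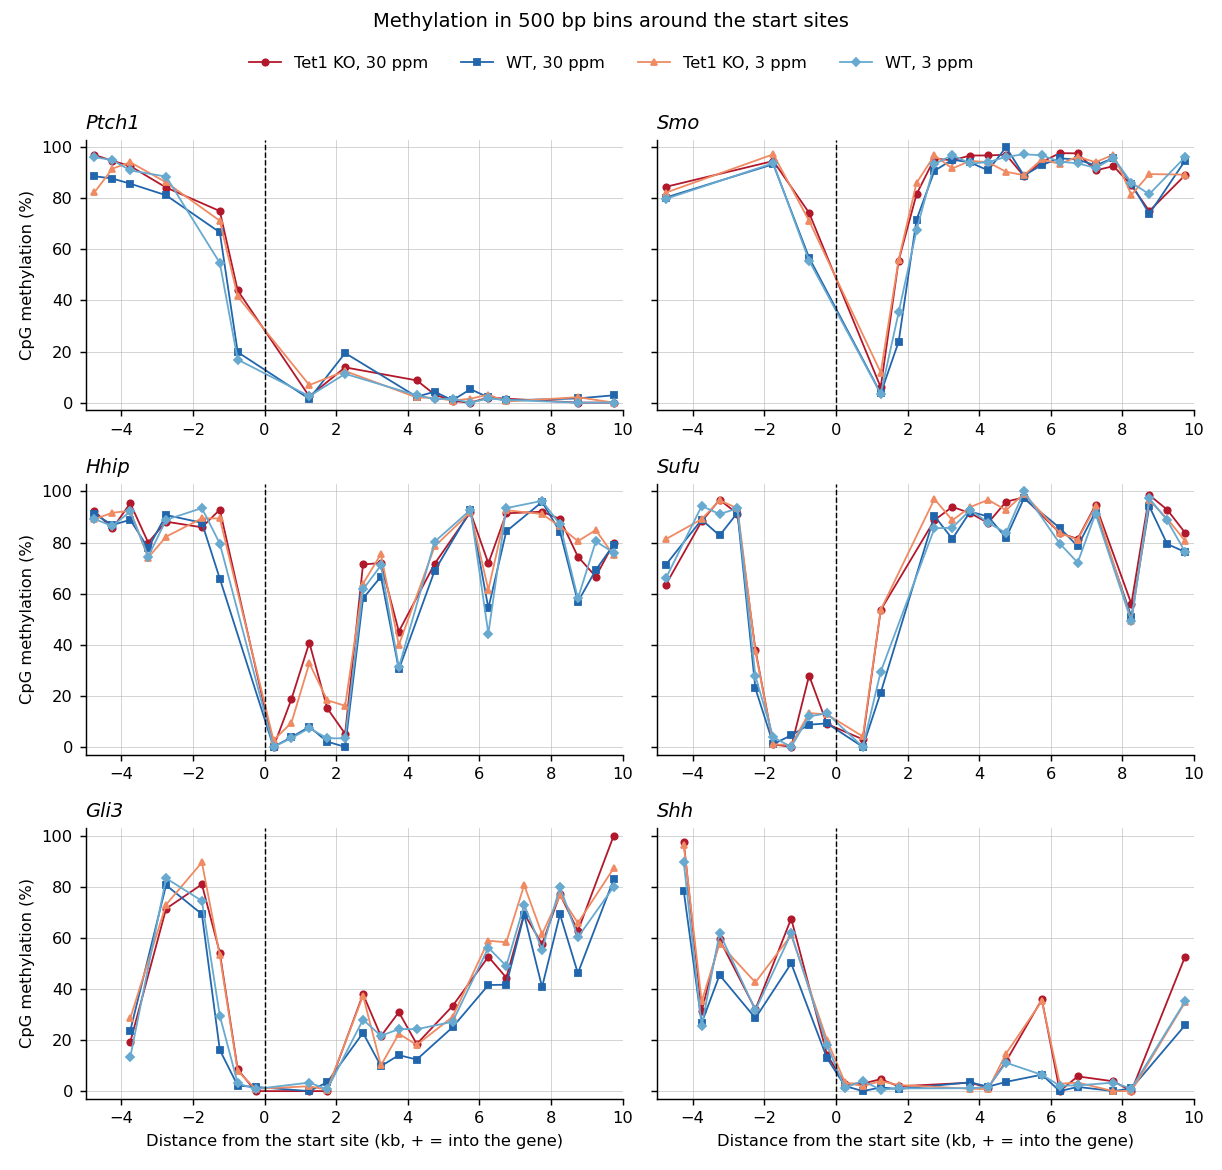
CpG methylation (%) in 500 bp bins with at least 3 measured CpGs, by distance (kb) from the start site, for 6 of the 9 genes, with 1 line per library joined across bins that held fewer. In Hhip the bins 0.25 kb inside were at 2.6% or less, and those 1.25 kb inside separate the KO lines (40.8% and 32.8%) from the WT lines (7.8% and 7.3%).

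The same regions were then fitted with limma over the 4 libraries, with genotype and diet as terms and 1 residual degree of freedom. That residual is the interaction of genotype and diet. Most of the variance estimate came from other genes (prior degrees of freedom 5.72 for starts, 87.0 for flanks and 15.4 for bodies). No SE or p-value from limma therefore measures the spread between embryos of a group. At an adjusted p under 0.05, genotype passed at the starts of Ptch1, Gli2 and Gli3, where 7.5% of all genes passed. It also passed at the flanks of Smo and Hhip, beside 12.5% of all genes, and at the body of Shh, beside 8.25%. The Ptch1 start was higher in KO by 1.53 ± 0.27 (SE) on the log2 scale of methylated to unmethylated reads, the Smo flanks by 0.90 ± 0.23, and the Shh body by 0.72 ± 0.16 (adjusted p = 0.0325, 0.00549 and 0.0106). The Gli2 and Gli3 starts passed at levels of 5.88% or less, and at the principal transcript start of Gli3 the KO minus WT difference turned to -0.65 and -0.41 points. On the methylated fraction instead of the log2 ratio, no start of any of the 19924 genes passed (0%). The smallest limma adjusted p over all starts was 0.0651. The adjustment gives many starts this same value, those of Ptch1 and Smo among them, so it does not rank these genes first. In all, 5620 starts had an unadjusted p under 0.05. At a minimum of 10 reads 0 of 16587 starts passed, with 4262 at an unadjusted p under 0.05 in limma, and 7 member starts were tested, not those of Ptch1 and Gpr161. The Gli2 start then had a coefficient of -0.46. At that minimum 1 member region passed, the Shh body, beside 3.72% of the flanks and 5.88% of the bodies of all genes.

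The diet comparisons asked whether 30 and 3 ppm differed within a genotype. None of the 27 member regions was called between the diets in KO, where 1.07% of 58316 regions of all genes were, nor in WT, where 0.953% were. With no minimum difference, 1 region passed in KO and 5 in WT, all of them gene bodies, beside 7.06% and 9.49% of the bodies of all genes. With limma, diet passed in none of the 27, beside 0.245% of all regions, and 2 of them had an unadjusted p under 0.05, beside 5.12%. In WT, flanks were lower at 30 ppm than at 3 ppm in 8 of 9 genes, beside 57.8% of all genes, with a median difference of -2.14 points, against -0.609 over all genes.

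Whether the KO minus WT difference, sign included, differed between the diets was tested by a Wald test of 2 log odds ratios. The signed difference was larger at 30 ppm in 5 member regions and larger at 3 ppm in none. Among starts the test passed at Gli1 (adjusted p = 0.0292), beside 0.758% of all genes. No member flank passed, beside 1.13%. Among bodies it passed for Gli3, Hhip, Ptch1 and Smo, 4 of 9, beside 14.4% of all genes. The Gli3 body read 82.7% and 77.7% at 30 ppm and 80.6% and 81.7% at 3 ppm, so the KO minus WT difference was 5.02 points and then -1.05 (adjusted p = 8.7e-44, Wald test). The 3 other bodies differed by 2.24 to 3.67 points at 30 ppm and by -0.86 to 0.66 at 3 ppm. With the libraries thinned to equal depth, the Gli3 and Ptch1 bodies still passed and the other 3 regions did not.

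To see where in and around the genes the differences lay, the gene spans ±3 kb were cut into 1 kb tiles. A tile was called at an adjusted p under 0.05 over all tiles of the genome and a difference of at least 10 points. Of 814 tiles, 28 (3.44%) were higher in KO at 30 ppm, beside 1.5% of the tiles of all genes. At 3 ppm 11 (1.35%) were higher, beside 1.51%, and 2 were lower, beside 0.0981%. In both diets 5 tiles (0.614%) were higher, beside 0.526%. Within 3 kb of the start sites, 8 of 54 tiles (14.8%) were higher at 30 ppm, beside 4.31% of such tiles of all genes, 5 (9.26%) at 3 ppm, beside 5.11%, and 4 (7.41%) in both diets, beside 2.01%. Gli3 gave 9 of the 28 tiles at 30 ppm, Sufu 6, Ptch1, Gli1 and Hhip 3 each, and the other genes 1 each. None of the 3 Gli1 tiles lies in the gene itself: 1 is upstream of it and the others lie beyond its end, toward Arhgap9. The Sufu tiles include an upstream one in an intron of Actr1a. Of the 11 at 3 ppm Gli3 gave 1, and neighbouring tiles of a gene are not independent.

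**Figure D3:**
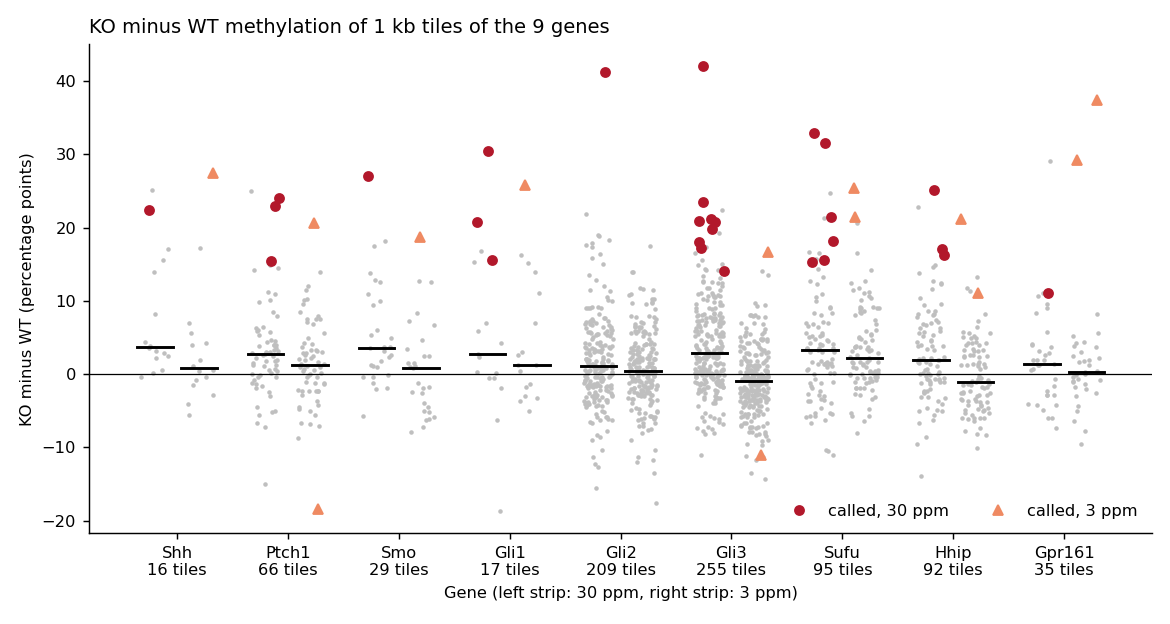
KO minus WT methylation (percentage points) of every 1 kb tile of the 9 genes, with the 30 ppm pair on the left and the 3 ppm pair on the right of each gene. Coloured symbols are called tiles, grey points the rest, and bars the medians, which for Gli3 are 2.86 at 30 ppm and -0.95 at 3 ppm.

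The 5 tiles called in both diets belonged to Gli3, Hhip, Smo and Sufu. The Hhip tile 1.5 kb inside the gene read 30.5% (KO) and 5.4% (WT) at 30 ppm, and 27.2% and 6.1% at 3 ppm (adjusted p = 8.14e-11 and 1.17e-10, Fisher's exact test). The Smo tile 2.0 kb inside read 74.7%, 47.7%, 73.6% and 54.8%, and the Sufu tile 1.6 kb inside 59.6%, 28.1%, 59.4% and 37.97%, in the order KO and WT at 30 ppm, then KO and WT at 3 ppm. The Gli3 tile 1.7 kb upstream read 70.7%, 49.6%, 79.9% and 63.2%. The fifth tile, 86.6 kb into Sufu and overlapping coding sequence, read 79.1%, 46.2%, 73.3% and 47.9%. With z over the robust SD, the Hhip and Smo tiles passed in both diets, and the other 3 lost the 3 ppm call (the Gli3 tile lost both).

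Between the diets, 6 member tiles were called. In KO, 2 were higher at 30 ppm, beside 0.0483% of the tiles of all genes: a Gli2 intron tile 62.1 kb inside the gene (100% at 30 ppm and 87.1% at 3 ppm) and a Ptch1 intron tile 20.1 kb inside (77.3% and 52.9%). In WT, 4 were lower at 30 ppm, beside 0.0442%. Of these, 3 were Gli3 intron tiles, which read 22.7% and 44.7% at 23.3 kb, 55.8% and 78.5% at 74.3 kb, and 42.7% and 65.9% at 159.3 kb. The other was a Ptch1 tile at 29.1 kb that overlaps an exon, at 38.3% and 61.5%. Both KO calls were lost when the libraries were thinned to equal depth, and of the WT calls the Ptch1 tile was.

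In 3 tiles the signed KO minus WT difference was larger at 30 ppm by the Wald test, beside 0.0615% of the tiles of all genes. They were the Gli3 tiles at 23.3 and 74.3 kb (adjusted p = 0.0156 and 0.0206) and a Ptch1 tile 19.1 kb inside. With the libraries thinned to equal depth, the Ptch1 tile still passed and the Gli3 tiles did not. In the Gli3 tile at 23.3 kb, KO read 36.7% and WT 22.7% at 30 ppm, against 33.4% and 44.7% at 3 ppm, so both KO libraries lay between the WT libraries. In the Ptch1 tile, KO read 24.0% and WT 16.0% at 30 ppm, against 12.3% and 30.7% at 3 ppm (adjusted p = 0.000661, Wald test). Its difference of 7.93 points at 30 ppm was not called. At 3 ppm it was -18.4 points and called lower in KO (adjusted p = 2.86e-06, Fisher's exact test), the larger of the 2 in size. Across all 255 Gli3 tiles, the median difference between 30 and 3 ppm was 1.67 points in KO and -2.76 in WT, against 0.644 and -0.573 over the tiles of all genes.

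**Figure D4:**
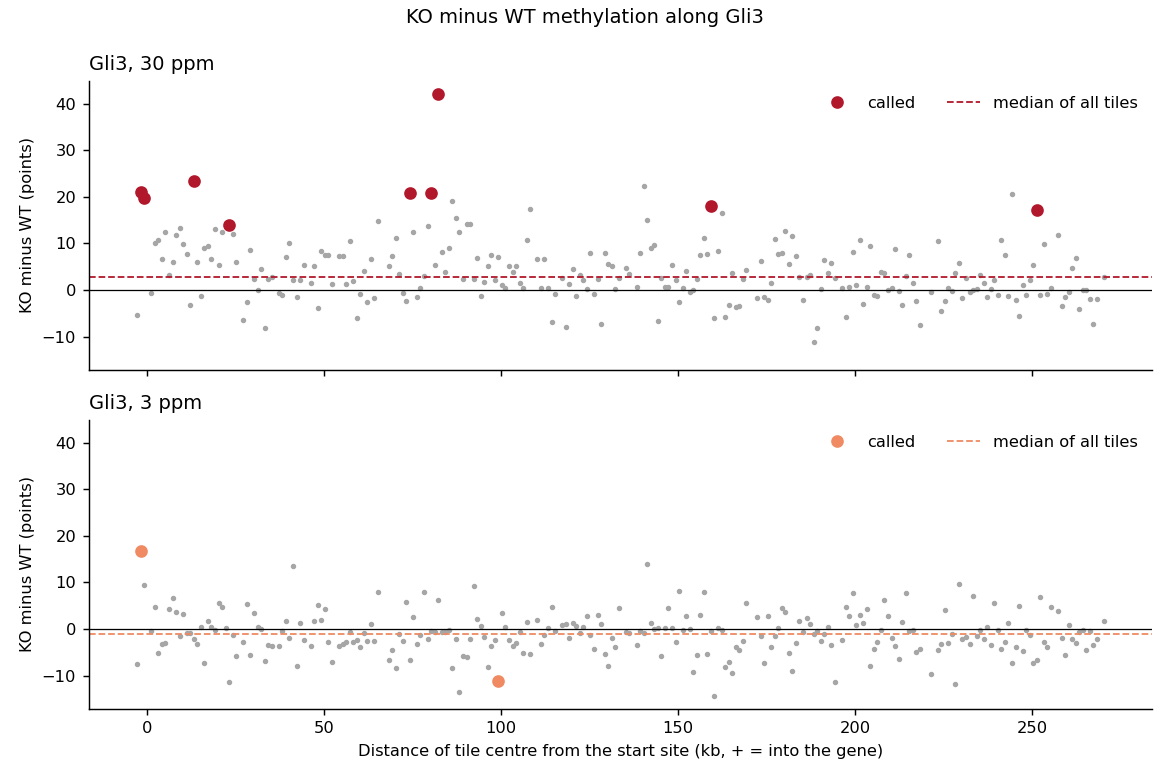
KO minus WT methylation (percentage points) of the Gli3 tiles by distance from the start site (kb), at 30 ppm above and 3 ppm below, with called tiles in colour and the median as a dashed line. At 30 ppm 9 called tiles run from 1.7 kb upstream to 251.3 kb inside, all above 0, while at 3 ppm 1 lies above and 1 below.

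The authors' DMR lists were then searched for regions that touch the 9 genes or 3 kb around them. They held 8 DMRs at 7 of the genes, all hyper in KO, 6 from the 30 ppm list and 2 from the 3 ppm list. Of all genes, 17.8% were touched by such a hyper DMR. The members are longer, with a median span of 65.3 kb against 17.6 kb, and whether length accounts for their share was not tested. None came from the diet lists, and Ptch1 and Smo had none. The 30 ppm list was made from the 30 ppm libraries, and the 3 ppm list from the 3 ppm libraries, so a DMR was tested only in the pair that had not defined it. Both pairs defined the Gpr161 DMR, on the same 6 CpGs, so neither pair tests it independently. Of the other 6 DMRs, 5 passed. Counting DMRs shared by the lists, those that passed were 81.3% of 3325 DMRs of the 30 ppm list and 83.6% of 3345 of the 3 ppm list.

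The Hhip DMR, in an intron 1.3 kb inside the gene, read 43.1% and 9.2% in the 30 ppm pair that defined it and 36.0% [29.7, 42.9] and 7.8% [4.7, 12.6] at 3 ppm (adjusted p = 8.96e-11, Fisher's exact test). The Gli3 DMR, 1.2 kb upstream, read 48.0% and 12.3% in its own pair and 47.1% [40.6, 53.6] and 21.1% [15.8, 27.6] at 3 ppm (adjusted p = 1.25e-07). The Gpr161 intron DMR, 20.8 kb inside, was on both lists and read 73.5% (KO) and 36.8% (WT) at 30 ppm, with 84.7% (KO) and 42.6% (WT) at 3 ppm. The Shh DMR, on the 3 ppm list and 5.7 kb inside, read 35.3% and 6.4% in its own pair and 35.9% [22.7, 51.6] and 6.5% [1.8, 20.7] at 30 ppm (adjusted p = 0.00575, all Fisher's exact test). At 30 ppm it rested on 6 CpGs with 39 (KO) and 31 (WT) reads summed over them, 5 to 7 at each CpG. These CpGs lie between chr5:28461409 and 28461453, so 1 read can be counted at several of them.

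The remaining DMRs, at Gli2, Sufu and Gli1, had an adjusted p near or above the threshold in the pair that had not defined them. The Gli2 intron DMR, 19.2 kb inside, read 64.2% and 17.1% at 30 ppm and 46.8% [38.2, 55.5] and 32.8% [24.9, 41.7] at 3 ppm (adjusted p = 0.043). The Sufu DMR, 86.4 kb inside, rested on 3 CpGs with 23 to 35 reads and read 50% and 20% at 3 ppm (adjusted p = 0.0328). The Gli1 DMR lay 14.3 kb downstream of the start site, beyond the gene, and overlapped coding sequence of the neighbour Arhgap9. It read 40% [24.6, 57.7] and 20% [8.07, 41.6] at 3 ppm (adjusted p = 0.243, Fisher's exact test), also on 3 CpGs.

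**Figure D5:**
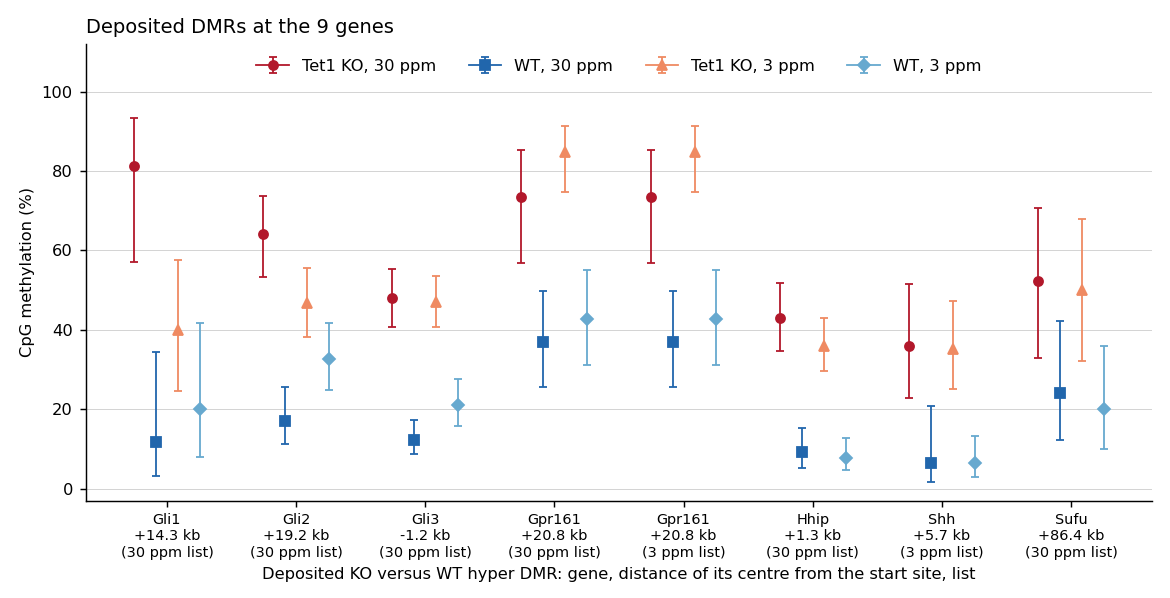
CpG methylation (%) of the 8 deposited hyper DMRs at the 9 genes, 1 point per library with its 95% Wilson interval, labelled by gene, distance of the centre from the start site (kb) and list. KO lies above WT in both diets in all 8, and the 2 Gpr161 entries are overlapping regions of the 2 lists, each with 6 measured CpGs.

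A list of 31 other Hedgehog genes held genes of the pathway and some of its neural target genes, among them Foxa2, Pax6 and Mycn. Of these 31, 30 had a start window that could be tested. In them 7 starts were higher in KO at 30 ppm and 9 at 3 ppm, beside 20.4% and 24.4% of all genes. These included 6 starts called in both diets: Disp1, Evc, Evc2, Hhat, Ihh and Scube2, beside 11.6% of the starts of all genes. At 3 ppm the start of Spop, a ubiquitin ligase adaptor for GLI proteins, was lower in KO (15.5% and 23.2%), beside 0.893% of the starts of all genes. It was not called at 30 ppm. Evc2, a ciliary partner of Smoothened, read 64.9% and 40.1% at 30 ppm and 64.0% and 39.5% at 3 ppm. Scube2, which helps release the ligand, read 71.8%, 49.2%, 75.4% and 51.9% in the same order, Hhat, which palmitoylates it, 57.0%, 39.5%, 65.3% and 41.5%, and Disp1, which exports it, 75.7%, 57.6%, 74.9% and 64.0%. Evc read 36.4%, 23.3%, 39.3% and 26.0%, and Ihh, a related ligand, 34.3%, 18.0%, 27.3% and 17.3%. Of the flanks, 12 of 31 were called at 30 ppm and 3 at 3 ppm (Evc, Gas1 and Ihh, in both diets), beside 19.8% and 16.8% of all genes, and 8.55% in both diets. Of the bodies, 5 of 30 were called in each diet, beside 8.03% and 5.75%. These included the targets Mycn and Pax6 at 30 ppm, and Foxa2 and Mycn at 3 ppm. The other listed targets had no region called between KO and WT. Between the diets, the Mycn body was lower at 30 ppm in KO and in WT, beside 0.222% and 0.488% of all bodies. The flanks of the target Ccnd1 were higher at 30 ppm in KO, beside 0.54% of all flanks. The Foxa2 start was among those called at 3 ppm. With each z divided by its robust SD, the calls of these genes over the 3 region classes fell from 24 to 3 at 30 ppm and from 17 to 2 at 3 ppm. The flanks of Gas1, a co-receptor, read 30.5%, 22.2%, 30.1% and 23.2%.

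As a description of the sequence, the start windows were searched on both strands for the consensus GLI motif GACCACCCA, reverse complement TGGGTGGTC. It occurred in 1 of the 9 genes, Ptch1, at 133 bp inside the annotated start, and in 1.72% of all genes. No 500 bp bin between 0.75 kb upstream and 1.25 kb inside Ptch1 held 3 measured CpGs. Coverage of the start windows was uneven, from 5.65% of CpGs at Smo to 100% at Gpr161, against 31.8% over all genes, and the start values describe only the CpGs that were read.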

How the data were processed

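WGBS libraries of 4 embryonic brains, 1 per group, were used. Per the labels and the study's methods, the authors trimmed reads with Trim Galore 0.6.10, aligned them to mm10 (GRCm38) with Bismark 0.23.1, removed duplicates and merged strands. The deposited files give, per CpG, the fraction of reads methylated and the count of reads after deduplication, and methylated reads are the product of these. DMR lists were called by the authors with DSS. They hold positions and a direction, with no statistic.

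File positions were shifted by 1 base, after which all 14907672 CpGs lay on CG. A CpG was kept where each of the 4 libraries had 5 reads or more, and reads were summed over regions and 1 kb tiles with at least 3 such CpGs, using GENCODE vM21. Mean depth was 13.2 to 21.2 reads per CpG, and intervals are Wilson 95%. Fisher's exact tests were two-sided with Benjamini-Hochberg adjustment over all genes or tiles. Both were computed by purpose-written functions that were checked against scipy 1.17.1. Wald tests added 0.5 to each count, and limma 3.58.1 used log2 ratios with a pseudocount of 1. The test scripts were tested on simulated data. Members and gene lists were chosen with earlier results of these data known. The text names all 9 members, their deposited DMRs, their tiles called in both diets or between diets, and the other Hedgehog genes with a start or flank called in both diets. The Ptch1 tile at 19.1 kb, the Sufu tile 2.4 kb and the Hhip tile 1.5 kb upstream, the 500 bp bins, Spop and the single CpGs were named after their values were seen. Alternatives were other coverage minimums, windows, starts, thresholds, thinning, scaling and the mean of CpG levels in place of summed reads.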

Additional observations from a re-analysis of the deposited data

Results flagged for a closer look

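With its sign kept, the KO minus WT difference was larger at 30 ppm than at 3 ppm at 5 regions and 3 tiles. This was by a Wald test of the difference itself, with adjustment over all genes or tiles. The gap was 18.8 points at the Gli1 start (15.5 against -3.24, adjusted p = 0.0292), 6.06 at the Gli3 body, 3.12 at the Smo body, 3.01 at the Ptch1 body and 1.98 at the Hhip body. Over all genes, this held for 0.758% of starts, 14.4% of bodies and 0.0615% of tiles. The median body difference over all genes was 1.65 points at 30 ppm and 0.523 at 3 ppm. In tiles the gap was 25.2 points at Gli3 23.3 kb, 27.6 at Gli3 74.3 kb and 26.3 at Ptch1 19.1 kb. In these 3 tiles KO was above WT at 30 ppm and below it at 3 ppm. The Ptch1 tile was called only at 3 ppm, as lower in KO. With the libraries thinned to equal depth, the Gli3 and Ptch1 bodies still passed and the other 3 regions did not, and of the 3 tiles only that of Ptch1 did. With windows of 500 bp and 2 kb, and at a minimum of 10 reads, the Gli1 start and the Smo body were lost. With no coverage minimum the Smo body was lost. The Wald values were not rescaled by a robust SD. Each diet had 1 KO and 1 WT library, so diet, litter and library cannot be told apart.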

How the results depend on the processing

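No paired analysis was possible because each group had 1 library, and no library could be left out for the same reason. With each z divided by its robust SD, member regions called fell from 9 to 3 at 30 ppm and from 7 to 0 at 3 ppm, those of the other Hedgehog genes from 24 to 3 and from 17 to 2, and member tiles from 28 to 12 and from 11 to 5, with 1 lower tile at 3 ppm, 2 in both diets and 0 between diets in KO. By that scaling, 2.19% and 1.81% of the regions of all genes were higher. Of the 1863069 tiles of the genome, 7480 and 8403 were higher, and 2989 in both diets. With no minimum difference, 16 member regions were higher at 30 ppm, 1 was lower at 3 ppm, 1 was higher at 30 ppm in KO and 5 were lower at 30 ppm in WT, and the other genes gave 41 and 27. Over all genes, 4187 of 19924 starts, 4168 of 20368 flanks and 7286 of 18024 bodies were then higher at 30 ppm. At 3 ppm 5118, 3616 and 3929 were higher, and 204, 211 and 797 lower. Thinned to equal depth, 4 member regions and 4 tiles were called at 3 ppm, 3 tiles in both diets and 0 between diets in KO, and the signed KO minus WT difference was larger at 30 ppm (Wald test) in 2 regions instead of 5. Over all genes, 3393 of 19778 starts, 2350 of 20355 flanks and 846 of 18000 bodies were then higher at 3 ppm. Of 1837562 tiles of the genome, 10588 were higher at 3 ppm and 4435 in both diets. At a minimum of 10 reads, 15 and 7 tiles were higher, 1 was lower at 3 ppm and 1 differed between diets in KO, the other genes gave 14 and 6, and limma called 1 region instead of 6. Of 1468629 tiles of the genome, 10002 and 8246 were then higher. Over all genes, 2548 of 16587 starts, 2367 of 19908 flanks and 900 of 17478 bodies were higher at 30 ppm. At 3 ppm these were 2772, 1792 and 473. With windows of 500 bp and 2 kb, 3 regions passed that Wald test. Over all genes, it then passed with a larger difference at 30 ppm at 24 of 17170 starts, 235 of 20294 flanks and 2673 of 18841 bodies. With no coverage minimum, 1 region was higher and 1 tile lower at 30 ppm in KO. Over all genes, 461 of 20114 starts, 249 of 20400 flanks and 100 of 18072 bodies were then higher. Of 1907487 tiles of the genome, 584 were lower. The Ptch1 start at 30 ppm reversed to -0.55 points at the principal transcript start. The Gli3 body at 30 ppm lost its call in 4 settings (4.44 to 4.99 points). Across the alternatives, 113 counts of calls stayed within 1.5 times and 30 did not. The cause was not tested. The 113 include counts that were 0 in both the main setting and the alternative, which held no call that could be lost. They are therefore not all counts of calls that held. For single regions and single tiles, most checks kept the main result, and most of the others were weaker. In the members' start windows, 5.65% to 100% of the CpGs had the reads required in all 4 libraries.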
